A study of Homo sapiens with 6 samples.

Results

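The keratin genes described here are 10 of the 22354 loci counted by RNA-seq in the human thyroid cell line HTori-3.1, and 9 of the 10 had enough counts to be fitted. They are KRT7, KRT8, KRT10, KRT15, KRT17, KRT18, KRT19, KRT80, KRT81 and KRT86. They were chosen on the contrast described here, for the fall of KRT81 beside keratins of simple epithelia, so their fold changes are given as a description with no test. The 6 libraries fall into 2 groups of 3 cultures, labelled control and labelled BMAL1 knockout, the latter carrying Cas9 with a guide RNA against BMAL1, a transcription factor of the circadian clock. Cells of both groups were exposed to 2 μM etoposide, a topoisomerase inhibitor that breaks DNA, for 24 h by the methods and 12 h by the treatment field of the labels. No untreated cultures were analysed here, and single clones were picked in making the knockout cells, but whether the 3 cultures labelled knockout share 1 clone is not given in the sources used here. Total counts were 26893063, 27029060 and 28513703 in control-labelled libraries and 43148059, 29860233 and 43563391 in knockout-labelled libraries. Nothing in the labels says how separate the 3 cultures of a group were, so p-values measure the spread between these libraries, which may be technical.

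The labels were first checked against BMAL1 itself. BMAL1 was measured at 11.3, 12.2 and 14.6 CPM (counts relative to a TMM-scaled library total) in control-labelled libraries and at 17.9, 19.8 and 19.4 CPM in knockout-labelled libraries. The mRNA was therefore higher in all 3 libraries labelled knockout, against the direction the label gives, with no overlap between groups. Cutting by Cas9 can remove a protein without lowering its mRNA, and no protein was analysed here, so this value does not settle whether BMAL1 was lost. By the methods, the knockout cells were checked by western blot, which was not part of the data used here. NR1D1, a clock gene driven by BMAL1, was lower in the libraries labelled knockout, with values given below. It was named after its value was seen, and no other target of BMAL1 is given here, so it does not settle the question either. The log2 fold change of BMAL1 was 0.58 (standard error, SE, 0.11; adjusted p = 0.0204 by the quasi-likelihood test of edgeR, adjusted over all genes after Benjamini and Hochberg). The adjusted p of BMAL1 rose above 0.05 in 4 of the 6 fits that left out a library: it was 0.0896 without control replicate 1, 0.113 without control replicate 2, 0.0749 without BMAL1 knockout replicate 2 and 0.0598 without BMAL1 knockout replicate 3. Every direction is therefore given for libraries by their label. BMAL1 knockout replicate 1 also stood apart from its group: its counts differed from those of replicates 2 and 3 with 31 and 45 times the variance of pure counting error, beside 7.43 times between replicates 2 and 3. The log2 fold change of each keratin gene tested was recomputed without it and without each other library in turn.

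Keratins are the intermediate filament proteins of epithelial cells. Each filament is built from pairs of an acidic type I and a basic type II keratin, so the genes are usually read as partners. KRT8 and KRT18 form the typical pair of simple epithelia, such as the thyroid follicle, where KRT7 and KRT19 are also found. KRT10 belongs to the upper layers of the epidermis, KRT15 to its basal layer, and KRT17 to hair follicles and to wounded skin, while KRT80 is found widely in epithelia. KRT81 and KRT86 are type II hair keratins of the hair cortex. Most type II genes lie together on chromosome 12 and most type I genes on chromosome 17; KRT18 is the type I gene found beside KRT8 in the type II cluster.

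KRT81 and KRT86 are close copies, which bears on how reads are shared between them. Their coding sequences were identical at 1365 of 1454 aligned bases (93.9%), and the longest identical run held 605 bases. Of the 150-base windows of the KRT81 transcript, 456 of 1780 (25.6%) had an exact copy in KRT86, so a read pair with both mates wholly in such windows may have no unique place. The reads were paired, so a mate outside can place the other. KRT83, another hair keratin, was identical to KRT81 at 93.3% of 1464 aligned coding bases and shared no such window with it. For KRT86 the share was 532 of 2098 windows (25.4%), with copies in KRT81 and in an antisense RNA gene that overlaps it. In hg38, KRT81 occupies bases 52285913 to 52291534 of chromosome 12 (reverse strand), inside the span of KRT86, which runs from 52249300 to 52309163 on the forward strand, with no shared exon bases. The pair differ most within a 90-base stretch of the coding sequence, at coding bases 1237 to 1326, shown because reads over it tell the genes apart. In the lines that follow the 19 differing bases are in capitals. The stretch is spliced from chr12:52286447-52287112 on the reverse strand for KRT81 and from chr12:52306270-52308450 on the forward strand for KRT86.
KRT81: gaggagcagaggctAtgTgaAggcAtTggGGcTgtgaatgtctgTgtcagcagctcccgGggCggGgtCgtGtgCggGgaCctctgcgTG
KRT86: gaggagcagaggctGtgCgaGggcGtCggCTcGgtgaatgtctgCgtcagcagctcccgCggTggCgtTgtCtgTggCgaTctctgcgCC

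KRT81 was the member with the largest fall. Its counts were 1348, 1449 and 1654 in control-labelled libraries and 1163, 825 and 1402 in knockout-labelled libraries. Scaled to the library, these were 50.2, 54.2 and 59.1 CPM against 27.2, 27.0 and 31.6 CPM. Every library labelled knockout lay below every library labelled control. The means were 54.5 ± 4.42 CPM and 28.6 ± 2.60 CPM (SD, n = 3 each), a ratio of 0.525. The log2 fold change was -0.93 (SE 0.097), and 0.76% of all genes tested had a lower value. Without any 1 library it lay between -1.01 and -0.86.

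KRT86, which shares such windows with KRT81, was scarce. It had 48, 36 and 20 counts in control-labelled libraries and 35, 28 and 37 in knockout-labelled libraries, or 1.79, 1.35 and 0.714 CPM against 0.820, 0.917 and 0.835 CPM. The groups overlapped, since control replicate 3 was the lowest of the 6 libraries and the other controls were the highest. The log2 fold change was -0.58 with a standard error of 0.33, and it ranged from -0.87 to -0.27 without any 1 library. Scaled to exon length, KRT81 was 35.3 to 104 times as abundant as KRT86 in control-labelled libraries and 37.0 to 47.6 times in knockout-labelled libraries. Both genes may be uncertain within the shared windows given above.

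The simple epithelial pair KRT8 and KRT18 was lower in knockout-labelled libraries. KRT18 was measured at 842, 860.5 and 853 CPM in control-labelled libraries and at 651, 564 and 591 CPM in knockout-labelled libraries. The controls lay within a narrow range and the other group well below it. The means were 852 ± 9.45 CPM and 602 ± 44.2 CPM (SD, n = 3 each), with a log2 fold change of -0.50 (SE 0.076). KRT8, the type II partner, was measured at 1416, 1444 and 1363 CPM in control-labelled libraries and at 1156, 1148 and 1165 CPM in knockout-labelled libraries. The groups again did not overlap, and the spread within the second was small. The means were 1408 ± 41.4 CPM and 1157 ± 8.11 CPM (SD, n = 3 each), with a log2 fold change of -0.28 (SE 0.068). The 2 genes lie head to head on opposite strands, KRT8 from 52897187 to 52949954 and KRT18 from 52948871 to 52952906 on chromosome 12, and share 525 exon bases. The strandedness of the libraries is not given in the sources used here, so reads over those bases cannot be told apart.

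**Figure D1:**
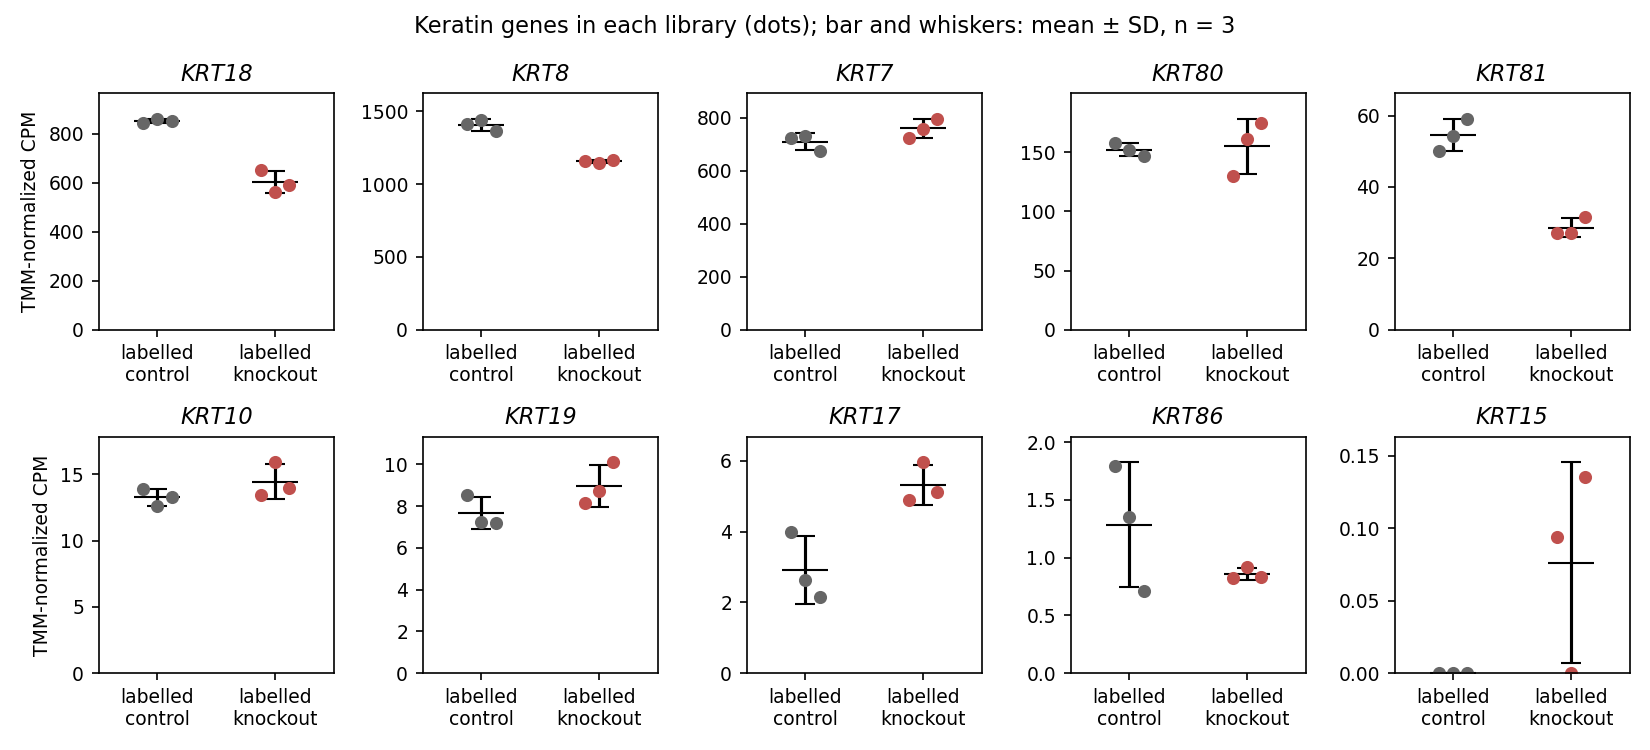
TMM-normalized CPM (vertical axis, from 0) of each of the 10 keratin genes in the 3 libraries labelled control (grey) and the 3 labelled BMAL1 knockout (red), with the mean ± SD of each group. KRT18, KRT8 and KRT81 sit lower in every library labelled BMAL1 knockout, KRT17 sits higher, and the groups of KRT7, KRT80, KRT10, KRT19 and KRT86 overlap.

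KRT7 and KRT19, the other keratins of simple epithelia, did not separate the groups. KRT7 was measured at 724, 732 and 674 CPM in control-labelled libraries and at 724, 759 and 796 CPM in knockout-labelled libraries. The groups overlapped, since control replicate 2 lay above BMAL1 knockout replicate 1, and the log2 fold change was 0.10 (SE 0.074). KRT19 was measured at 8.54, 7.25 and 7.21 CPM against 8.13, 8.71 and 10.1 CPM, again with overlap. Its log2 fold change was 0.23 (SE 0.13). KRT80 lay at 158, 152 and 147 CPM in control-labelled libraries and at 129.8, 161 and 175 CPM in knockout-labelled libraries. Here BMAL1 knockout replicate 1 was the lowest of the 6 and the other libraries of its group were the highest. The log2 fold change of 0.03 (SE 0.10) changed sign without a library, from -0.07 to 0.14.

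KRT17 was the member with the largest rise in value. It had 107, 70 and 60 counts in control-labelled libraries and 209, 182 and 227 in knockout-labelled libraries. These were 3.99, 2.62 and 2.14 CPM against 4.90, 5.96 and 5.12 CPM, and the groups did not overlap. The controls were spread widely, at 2.92 ± 0.958 CPM (SD, n = 3), beside 5.33 ± 0.561 CPM (SD, n = 3). The log2 fold change was 0.87 (SE 0.21) and lay between 0.69 and 1.16 without any 1 library. A total of 307 exon bases of KRT17 overlap an antisense RNA gene.

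KRT10 was measured at 13.9, 12.6 and 13.3 CPM in control-labelled libraries and at 13.4, 15.9 and 14.0 CPM in knockout-labelled libraries, with overlap. Its log2 fold change was 0.12 (SE 0.11). KRT15 was at or near 0. It had 0 counts in each library labelled control, which allows up to 0.112, 0.112 and 0.107 CPM at a floor of 3 counts, and 4, 0 and 6 counts in knockout-labelled libraries. No fold is given for it, and it was left out by the filter on low counts.

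Among all 14860 genes tested, 373 had an adjusted p under 0.05 (2.51%), of which 161 were higher (1.08%) and 212 lower (1.43%) in knockout-labelled libraries. The counts higher and lower depend on the analysis: they were 185 and 155 with library size only, 46 and 67 without control replicate 2 and 293 and 340 without BMAL1 knockout replicate 1. Of the 9 members tested, 2 had an adjusted p under 0.05, KRT81 and KRT18, both lower. The fall of KRT81 had prompted the choice of members, so this count is no test of them. At an unadjusted p under 0.05, 1 member was higher and 3 were lower, beside 9.08% and 7.78% of all genes tested. At a fold change over 2 with an unadjusted p under 0.01, 0 members were called, beside 0.956% of all genes. Groups did not overlap for 4 members, 3 of them lower and 1 higher, where 23.3% of all genes tested did so, 11.5% lower and 11.8% higher. The members were chosen on this contrast, so nothing is read from these counts. The median log2 fold change of the 9 members tested was 0.03, beside 0.01 for all genes.

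**Figure D2:**
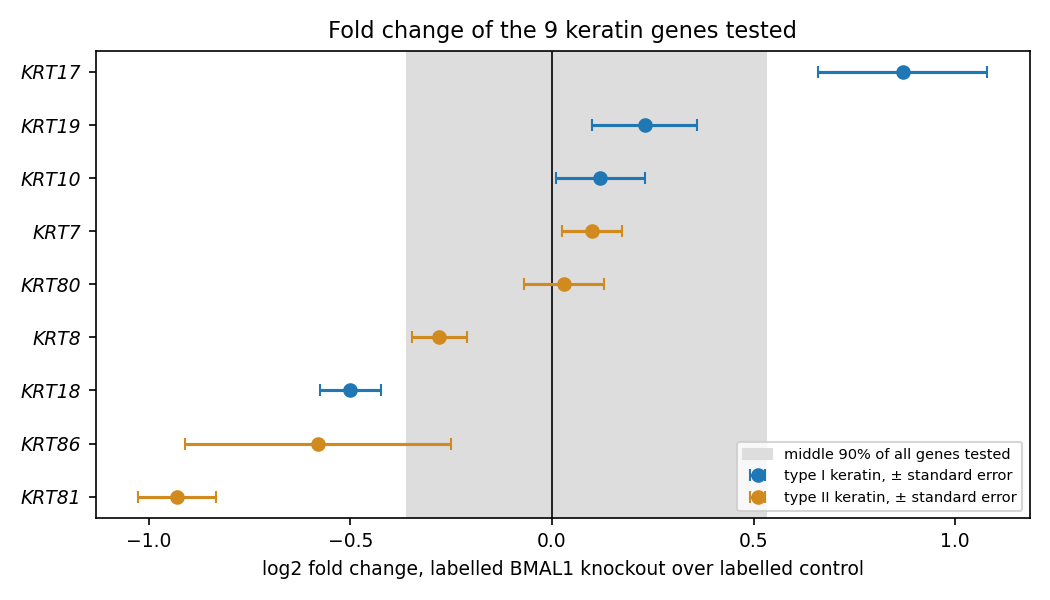
Log2 fold change (horizontal axis, labelled BMAL1 knockout over labelled control) with its standard error for the 9 keratin genes tested, type I in blue and type II in orange. The grey band holds the middle 90% of all genes, from -0.36 to 0.53. KRT81, KRT86 and KRT18 lie below it, KRT17 above it and the others inside it.

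Per kilobase of exon, KRT18, KRT8 and KRT7 led the members. RPKM, the CPM divided by the length of all exons in kilobases, was highest for KRT18 (mean 237, SD 45.5, over the 6 libraries of both groups), then KRT8 (186, SD 20.4) and KRT7 (184, SD 10.2). That order held in every control-labelled library. In knockout-labelled libraries KRT7 (181, 190 and 199 RPKM) lay above KRT8 (168, 167 and 169 RPKM) throughout, and in replicates 2 and 3 also above KRT18 (212, 184 and 193 RPKM). KRT80 (35.3, SD 3.44) and KRT81 (21.5, SD 7.53) followed, then KRT10 (6.40, SD 0.518), KRT19 (3.56, SD 0.455), KRT17 (1.38, SD 0.499) and KRT86 (0.442, SD 0.171). KRT18, KRT8 and KRT7 held 35.1%, 27.6% and 27.2% of the summed RPKM of the members. KRT81 held 3.19%. The order at the top rests on the length used, since with the length of the canonical transcript, an alternative chosen after seeing the data, KRT8 came first at 719 RPKM, then KRT18 at 514 and KRT7 at 452. KRT81 lay at 21.5 RPKM with either length, so its share of the sum would be lower with the canonical transcript.

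KRT18 made up nearly all of the type I sum, and the balance of the types differed between the groups. KRT18 held 96.0%, 96.6% and 96.5% of the type I RPKM in control-labelled libraries and 94.9%, 93.4% and 93.9% in knockout-labelled libraries. The ratio of summed type II to summed type I RPKM was 1.57, 1.57 and 1.50 in control-labelled libraries and 1.76, 2.07 and 2.07 in knockout-labelled libraries. The groups did not overlap, and BMAL1 knockout replicate 1 was the closest to the controls. The ratio of KRT8 to KRT18 was 0.737 ± 0.0211 (SD, n = 3) in control-labelled libraries and 0.860 ± 0.0598 (SD, n = 3) in knockout-labelled libraries. With the length of the longest transcript these became 1.21 ± 0.0321 (SD, n = 3) and 1.41 ± 0.0985 (SD, n = 3), so which partner is the more abundant depends on the length, while the direction of the shift was the same. The ratio of KRT7 to KRT8 was 0.867 ± 0.0146 (SD, n = 3) and 1.13 ± 0.0503 (SD, n = 3). With the canonical transcript these were 0.553 and 0.721, so KRT8 then led in both groups, while the direction of the shift was the same. The ratio of KRT7 to KRT19 ran from 49.5 to 58.9 and from 46.2 to 52.0, with overlap. KRT81 made up 5.79%, 6.15% and 7.10% of the type II sum in control-labelled libraries and 3.59%, 3.43% and 3.86% in knockout-labelled libraries. The mean shares, 6.35% and 3.63%, became 2.84% and 1.60% with the longest transcript and 2.19% and 1.27% with the canonical one.

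**Figure D3:**
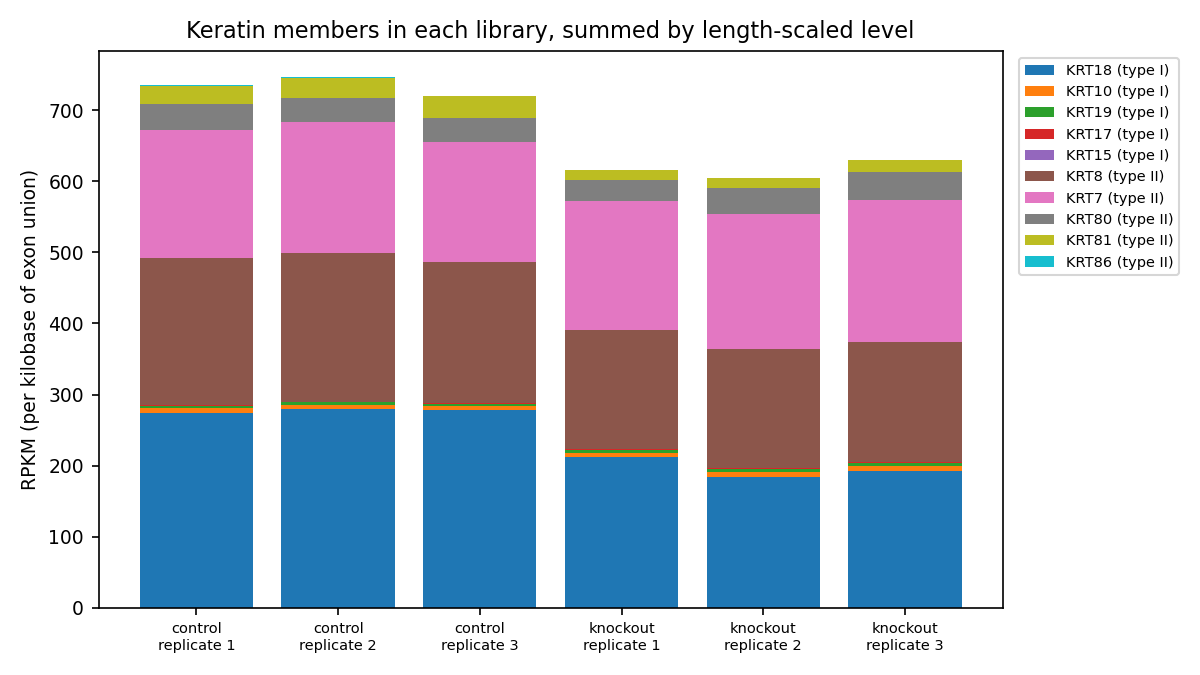
RPKM (vertical axis, from 0) of the members stacked for each of the 6 libraries. The summed level was 719.2 to 746.6 in control-labelled libraries and 604.9 to 630.4 in knockout-labelled libraries, and KRT18, KRT8 and KRT7 fill most of each bar.

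The rest of the keratin family was nearly silent. Of the 45 other keratin genes in the table, 21 had no count in any library, and the largest count of any of them in a library was 41, for KRT34. Only KRT34 and KRT222 were tested, with log2 fold changes of 0.12 (SE 0.34) and -0.14 (SE 0.39). KRT5 and KRT14, the basal keratinocyte pair, had at most 2 and 6 counts in any library. KRT83 and KRT85, other type II hair keratins, had at most 4 and 2. Of 94 keratin-associated protein genes, which encode the matrix of hair, 78 had no count, and the only 1 tested, KRTAP2-3, had a log2 fold change of -0.56 (SE 0.34, edgeR adjusted p = 0.447). No keratin pseudogene is listed. By edgeR, DESeq2 and limma-voom, 0 genes of these lists had an adjusted p under 0.05, and 0 had an unadjusted p under 0.05 by edgeR.

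Genes that surround keratins in hair were then compared. Of 10 genes of the hair cortex list, 7 were tested and 2 were higher by edgeR, beside 1.08% of all genes tested. At an unadjusted p under 0.05, 5 were higher, beside 9.08% of all genes tested. Of these, PADI3 and DLX3 had 9 counts each in control replicate 2. They passed the low-count filter with the help of the libraries labelled knockout, where they were higher. No conclusion is drawn from these numbers of calls. The median log2 fold change was 0.74, beside 0.01 for all genes, with 6 of the 7 above 0 and 1 below. That median rests on scarce genes: LEF1, DLX3 and PADI3 had control means of 0.640, 0.586 and 0.565 CPM. S100A3 and VDR, which were more abundant, had log2 fold changes of 0.15 (SE 0.16) and -0.20 (SE 0.12). The summed level of the list was 36.4 CPM in control-labelled libraries and 42.0 CPM in knockout-labelled libraries. TCHH encodes trichohyalin, a structural protein of the inner root sheath, and PADI3 an enzyme that citrullinates it. TCHH was measured at 2.39, 2.84 and 2.68 CPM in control-labelled libraries and at 3.96, 4.39 and 4.83 CPM in knockout-labelled libraries, with no overlap. Its log2 fold change was 0.74 (SE 0.17, edgeR adjusted p = 0.0397). PADI3 was measured at 0.857, 0.337 and 0.500 CPM against 1.80, 1.44 and 1.56 CPM, with a log2 fold change of 1.50 (SE 0.32, edgeR adjusted p = 0.0347). Both calls depend on the libraries and the analysis used. The adjusted p of TCHH was 0.0595 with a replicate block and 0.0547 with limma-voom, and that of PADI3 0.0627 after thinning to the smallest total. The adjusted p of TCHH was 0.148, 0.103 and 0.10 without control replicate 1, 2 and 3, and 0.123 and 0.121 without BMAL1 knockout replicate 2 and 3. That of PADI3 was 0.140 and 0.130 without control replicate 2 and 3, and 0.0651, 0.0600 and 0.0702 without BMAL1 knockout replicate 1, 2 and 3. HOXC13, a transcription factor of the hair cortex, was measured at 12.8, 13.5 and 12.5 CPM and at 14.2, 15.7 and 17.7 CPM, with a log2 fold change of 0.29 (SE 0.11, edgeR adjusted p = 0.195).

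Keratin filaments anchor at desmosomes and hemidesmosomes. Of 16 desmosome genes, 11 were tested, and 0 were called by edgeR, DESeq2 or limma-voom. JUP, or plakoglobin, was called higher without BMAL1 knockout replicate 1 (adjusted p = 0.0408). At an unadjusted p under 0.05, 1 was higher and 1 lower, beside 9.08% and 7.78% of all genes. The most abundant, DSG2, a desmosomal cadherin, was at 219, 221 and 214 CPM and at 221, 227 and 213 CPM. Of 6 hemidesmosome genes, all tested, 1 was lower, ITGA6, beside 1.43% of all genes. At an unadjusted p under 0.05, 2 were lower, ITGA6 and PLEC, beside 7.78%. A value below 0 was found for 5 of 6, beside 47.8% of all genes. The groups of the other 5 genes overlapped. ITGA6, the integrin chain that binds laminin, was measured at 91.0, 90.7 and 95.1 CPM in control-labelled libraries and at 64.7, 64.2 and 62.5 CPM in knockout-labelled libraries. The groups were well apart, with a log2 fold change of -0.53 (SE 0.072, edgeR adjusted p = 0.0031), and the call held in all 6 fits without a library.

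Transcription factors of epithelia were mixed. Of 17 genes listed, 10 were tested, 1 was higher and 2 lower, beside 1.08% and 1.43% of all genes, with a median of -0.10. At an unadjusted p under 0.05, 3 were higher and 4 lower, beside 9.08% and 7.78%. SOX9, a factor of hair follicle and duct progenitors, lay at 15.3, 12.3 and 12.7 CPM in control-labelled libraries and at 8.95, 6.62 and 7.72 CPM in knockout-labelled libraries. Its log2 fold change was -0.79 (SE 0.14, edgeR adjusted p = 0.0131), and the adjusted p rose to 0.0582 without control replicate 1 and 0.0628 without control replicate 3. KLF4, a factor of epithelial differentiation, was measured at 26.3 ± 0.827 CPM and 18.9 ± 1.13 CPM (SD, n = 3 each), with no overlap. The log2 fold change was -0.48 (SE 0.090, edgeR adjusted p = 0.0169). The adjusted p of KLF4 was 0.0529, 0.0939 and 0.0628 without control replicate 1, 2 and 3, and 0.0629 without BMAL1 knockout replicate 3. GRHL3, a grainyhead factor of the epidermal barrier, was measured at 2.12, 1.68 and 2.04 CPM against 4.17, 3.60 and 3.72 CPM. Its log2 fold change was 0.98 (SE 0.18, edgeR adjusted p = 0.0153), and the adjusted p rose to 0.0794 without control replicate 2 and 0.0612 without control replicate 3. TP63, the master factor of stratified epithelia, had 3 counts in 1 library and 0 in the others.

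Other filaments and junctions gave few calls. Of 11 other intermediate filament genes, 9 were tested and 0 were called by edgeR or limma-voom, while DESeq2 called 1 lower, VIM. BFSP1, a filament of the lens, was called higher with at least 10 counts in every library (adjusted p = 0.0488) and after thinning to the smallest total (adjusted p = 0.0355), beside an edgeR adjusted p of 0.0577 in the main fit. At an unadjusted p under 0.05, 2 were higher and 1 lower, beside 9.08% and 7.78% of all genes. VIM, the filament of mesenchymal cells, was abundant at 1831, 1853 and 1778 CPM and at 1540, 1509 and 1566 CPM. The groups did not overlap, with a log2 fold change of -0.24 (SE 0.067, edgeR adjusted p = 0.0846, or 0.0127 without BMAL1 knockout replicate 1). Of 12 simple epithelium genes, 8 were tested and 0 were called by edgeR, DESeq2 or limma-voom, nor was any under 0.05 unadjusted. CDH1, which encodes E-cadherin, had 5 to 14 counts and EPCAM 0 to 17. CLDN1, a tight junction protein, was at 85.7 ± 9.98 CPM and 78.2 ± 1.81 CPM (SD, n = 3 each). Of 13 cornified envelope genes, 8 had no count and 3 were tested, with 0 called by edgeR, DESeq2 or limma-voom. Among these 3, 1 was lower at an unadjusted p under 0.05, beside 7.78% of all genes.

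**Figure D4:**
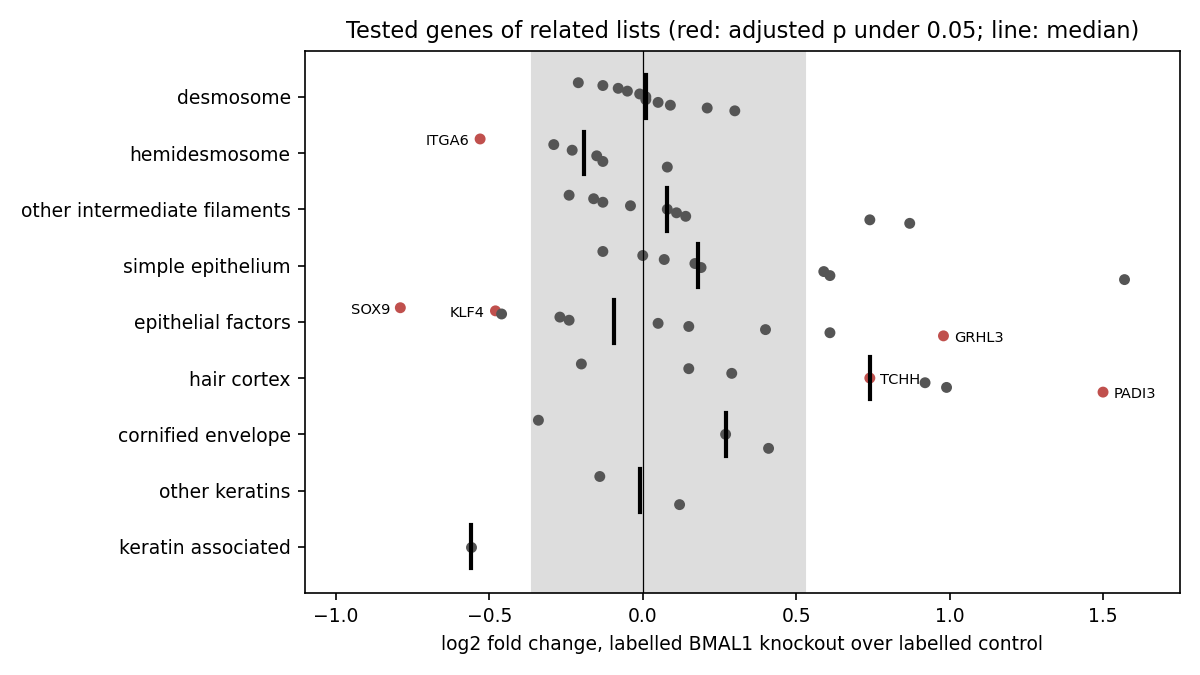
Log2 fold change (horizontal axis) of each tested gene of the lists around the keratins, with the median of each list as a line, genes under an adjusted p of 0.05 in red and the middle 90% of all genes in grey. ITGA6, SOX9 and KLF4 lie to the left, and GRHL3, TCHH and PADI3 to the right.

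The cell line was checked against markers. Of 12 thyroid follicular genes, 4 were tested and 3 had no count. PAX8 was at 124, 125 and 151 CPM in control-labelled libraries and at 92.5, 106 and 130 CPM in knockout-labelled libraries, and FOXE1 was at 47.5, 47.7 and 48.8 CPM against 36.2, 42.1 and 41.6 CPM. The defining genes TG and TSHR had at most 13 and 6 counts in any library, and NKX2-1 had 0. The summed level of the list was 182, 183 and 212 CPM against 142, 158 and 184 CPM. Keratinocyte markers were at or near 0, with 8 genes listed, 0 tested and a sum of at most 0.393 CPM in any library. The 7 fibroblast markers summed to 922, 926 and 789.6 CPM and to 718, 935 and 989 CPM, nearly all from COL1A1, and 2 were tested. Of 4 smooth muscle markers 3 were tested, led by TAGLN, and ACTA2 was higher, with a log2 fold change of 0.95 (SE 0.18, edgeR adjusted p = 0.0188). The adjusted p of ACTA2 was 0.067, 0.0529 and 0.0785 without control replicate 1, 2 and 3 and 0.0657 without BMAL1 knockout replicate 2. TAGLN was called higher without BMAL1 knockout replicate 1 (adjusted p = 0.0481). The list summed to 108, 101 and 108 CPM and to 116, 132 and 124 CPM. Of 8 immune markers, led by CD68, 3 were tested, and PTPRC was lower, at 6.41, 6.24 and 6.53 CPM against 2.51, 1.97 and 2.60 CPM (log2 fold change -1.43, SE 0.16, edgeR adjusted p = 0.00127). CD14 had a value above 0, at 0.413 ± 0.202 CPM and 0.835 ± 0.399 CPM (SD, n = 3 each), with overlap (log2 fold change 0.99, SE 0.47, edgeR adjusted p = 0.318). The list summed to 19.2, 19.8 and 18.1 CPM and to 14.1, 12.4 and 13.2 CPM. Endothelial, C cell and parathyroid markers summed to at most 2.54, 3.37 and 0.179 CPM in any library. By edgeR, DESeq2 and limma-voom 0 genes of the thyroid, fibroblast, endothelial and C cell lists were called. Of these lists only the thyroid one had genes at an unadjusted p under 0.05, 2 lower, beside 7.78% of all genes tested. All libraries are bulk cultures of a single cell line, in which fewer cells with the RNA of a marker and less of it per cell cannot be told apart. The part of these markers in the keratin values was not tested.

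The fall of KRT81 was set beside its neighbours on the chromosome. The 20 tested genes on either side included 5 members and 35 other genes, of which 0 were called by edgeR or limma-voom and 1 by DESeq2 (NR4A1), while 5 had an unadjusted p under 0.05 by edgeR, beside 16.9% of all genes. The 35 genes had a median log2 fold change of -0.03, beside 0.01 for all genes, and 22 of them had a value below 0, beside 47.8% of all genes. The nearest tested genes on either side were KRT86 and KRT8, themselves members. Around KRT7 the window covered nearly the same genes, with a median of -0.03 over 35. Around KRT17 on chromosome 17 the 38 other genes had a median of 0.01 and 1 was lower, NR1D1, which encodes the clock repressor REV-ERB alpha and was named after its value was seen. It lay at 7.75, 7.11 and 6.86 CPM in control-labelled libraries and at 3.07, 3.24 and 2.84 CPM in knockout-labelled libraries, with a log2 fold change of -1.25 (SE 0.14, edgeR adjusted p = 0.00146).

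**Figure D5:**
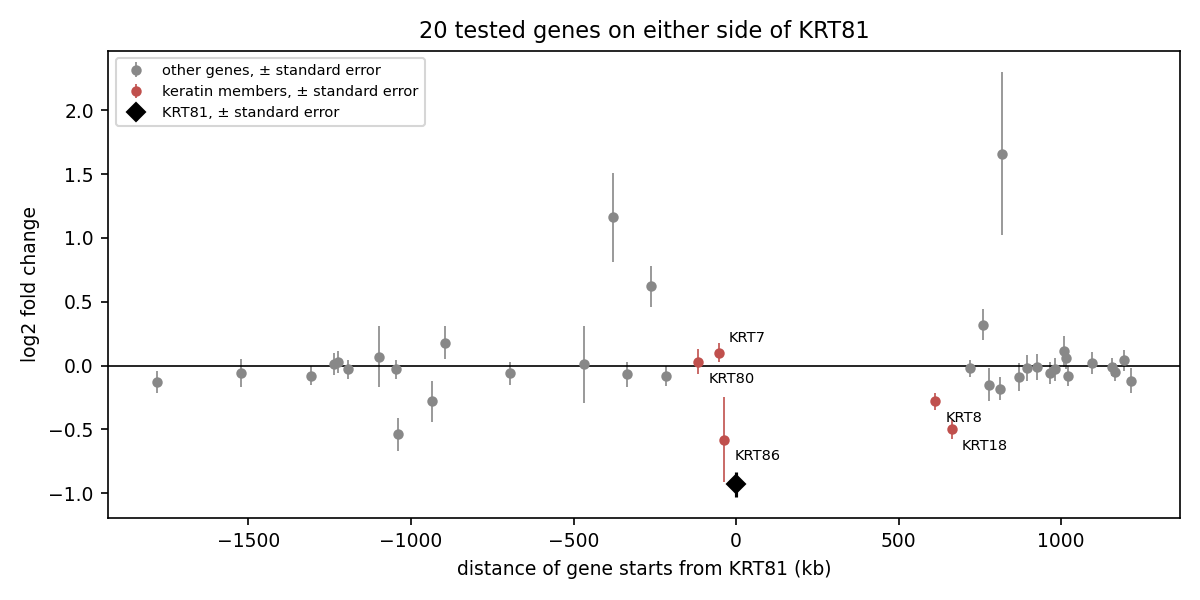
Log2 fold change with its standard error (vertical axis) of the 20 tested genes on either side of KRT81, by the distance of gene starts from KRT81 in kilobases (horizontal axis). The members KRT86, KRT8 and KRT18 lie below 0, KRT7 and KRT80 near it, and the other genes scatter around a median of -0.03.

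RefSeq promoter windows (GRCh38.p14) were matched for 2 members, KRT8 and KRT10. The E-box CACGTG, searched on both strands, was in neither, and 7.43% of 27305 promoters of the same length hold it. The motif TATAAA, searched likewise, was in the KRT10 window and not in that of KRT8, beside 11.95% of promoters.

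Among 12478 named genes of at least 1 CPM on average, those most like KRT81 over the 6 libraries included F3 (Pearson r = 0.998, n = 6), F2R (0.997), WNT5B (0.995) and RILPL2 (0.995). WNT5B, a secreted Wnt ligand, was at 43.1 ± 2.31 CPM in control-labelled libraries and 23.6 ± 2.24 CPM in knockout-labelled libraries (SD, n = 3 each), with a log2 fold change of -0.87 (SE 0.095). The most opposite were KLHL12 (-0.998), ADA (-0.997), HPSE (-0.995), CDIN1 (-0.995) and FAM241B (-0.994). All libraries share the group difference, so any gene that separates the groups scores high, and these are a description with no test. Ranked by Spearman's rho, 56 genes reached 1. Of the 5 genes highest by Pearson r, 1 was among them, while F3, F2R, WNT5B and RILPL2 lay at 0.943. Within the family, r with KRT81 was 0.952 for KRT8, 0.947 for KRT18, 0.39 for KRT86 and 0.0184 for KRT80 over the same 6 libraries. It was -0.912 for KRT17, -0.645 for KRT19, -0.643 for KRT7 and -0.637 for KRT10.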

How the data were processed

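RNA-seq counts of 6 HTori-3.1 libraries were used. The deposited values are raw counts per gene. By the authors' account they rest on reads with a unique place in hg38, after filtering for adapters and base quality. The submitters' processing notes name fastp 0.20.1 and HISAT2 2.0.4. The annotation and strandedness are not given in the sources used here. Symbols of 20018 of 22354 loci matched GENCODE v44 for coordinates, exon lengths and sequences. In R, edgeR 4.0.16 was run on the counts (TMM, default low-count filter, robust quasi-likelihood 2-sided test, Benjamini-Hochberg over all genes kept). CPM and RPKM were computed from the counts. Fits were also run on simulated data, and no value from those runs is reported here. Between replicates of a group the variance was 5.41 to 45.0 times that of pure counting error. The members and lists were chosen with earlier results of these data known. Genes named are the members, BMAL1, the called and the 2 most abundant genes of each list, the 5 most and least like KRT81, the nearest tested genes on either side of it and genes that overlap a member; some of these are not reported here, and all other genes named were chosen after their values were seen. Alternatives were median-of-ratios factors, library size only, other filters, a replicate block, each library left out, DESeq2 1.42.0, limma-voom (limma 3.58.1), thinning to the smallest total, other lengths and windows, and, chosen after seeing the data, removal of GC trends and the canonical transcript length.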

Additional observations from a re-analysis of the deposited data

How the results depend on the processing

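Over 15 alternative fits, the log2 fold change of KRT81 lay between -1.01 and -0.86. All 135 values of the 9 members tested moved by less than 1 SD between replicates (log2 CPM, pooled within groups). Only KRT17 (1.16 from 0.87 without control replicate 1) and KRT80 (0.14 from 0.03 without BMAL1 knockout replicate 1) moved by more than the standard error of the main fit, and only KRT80 changed sign, to -0.07 without BMAL1 knockout replicate 3 and to just below 0 without BMAL1 knockout replicate 2. Counts of calls moved more. Genes called higher and lower were 161 and 212, against 185 and 155 with library size only, where the order of directions turned, 256 and 379 with DESeq2 and 498 and 610 with GC trends removed, an alternative chosen after seeing the data. Without control replicate 1, 2 and 3 they were 83 and 83, 46 and 67, and 60 and 81. Without BMAL1 knockout replicate 1, 2 and 3 they were 293 and 340, 66 and 96, and 102 and 147. The number of members called higher was 0 by edgeR (1 at an unadjusted p under 0.05) and 1 with no low-count filter, with the replicate block, with DESeq2 and with GC trends removed. It was also 1 without control replicate 1 and 0 without any other library. Members called lower were 2 by edgeR and 3 with DESeq2, limma-voom and GC trends removed. They were 1 without control replicate 2, 3 without BMAL1 knockout replicate 1 and 2 without any other library. Over all genes, those called higher and lower were 193 and 221 with no low-count filter and 118 and 194 with limma-voom. Totals over all genes thus also differ between fits, and the numbers of members called are a description with no test. At a fold change over 2 with an unadjusted p under 0.01, 0 members were called. Genes of the lists around the keratins called higher and lower were 3 and 3, then 5 and 5 with GC trends removed, and 0 to 3 and 1 to 4 without a library. The cause was not tested.

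The ratio of type II to type I RPKM was 1.55 in libraries labelled control and 1.97 in libraries labelled BMAL1 knockout. It was 2.37 and 3.06 with the longest transcript and 2.10 and 2.66 with the canonical transcript, because the lengths differ. Replicate numbers did not pair the libraries, as deviations of same-numbered libraries correlated at -0.09, -0.05 and 0.00, and 0 of 6 libraries correlated best with the same number in the other group. With the replicate block 132 genes were called higher and 145 lower, and TCHH had an adjusted p of 0.0595. TCHH had 0.0547 with limma-voom, and PADI3 0.0627 after thinning. PADI3 gave no value with at least 10 counts in every library. Depth limits KRT86 and KRT15, which had at most 48 and 6 counts.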
